A study of Mus musculus with 4 samples.

Results

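The genes described here encode adhesion G protein-coupled receptors and orphan G protein-coupled receptors, 97 of the 19938 mouse genes that the array measured with a probe set of a single gene symbol. They were taken by name alone: 26 had a symbol beginning Adgr and 71 a symbol beginning Gpr followed by a digit. Bone marrow cells of C57BL/6J mice were grown for 7 days under either of 2 growth factors, sorted, and profiled on 1-colour Affymetrix arrays from 300 ng of total RNA each. The first group of 2 arrays, here GM-CSF M1, held cells given granulocyte-macrophage colony-stimulating factor (GM-CSF) and sorted as CD45+, MHCII+, CD8a- and F4/80+. The second group of 2 arrays, here M-CSF M2, held cells grown in macrophage colony-stimulating factor (M-CSF), supplied as 20% supernatant of the L929 fibroblast line, and sorted as CD45+, F4/80+ and CD11b+. Neither group carried a named allele or a further agent. The labels give neither the age of the mice nor the origin of the replicates as cultures or animals. A p-value here reflects no more than the spread among these arrays. In the M-CSF pair that spread may be technical, while the arrays of the GM-CSF pair differed in sex-linked RNA, as given below. Growth factor, L929 supernatant and sort gate changed together and cannot be told apart. F4/80 is the product of Adgre1, a member of the family, so both groups were sorted for it.

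G protein-coupled receptors cross the membrane several times and pass a signal from outside the cell to G proteins inside it, which raise or lower cyclic AMP, open calcium stores or act on the cytoskeleton. Adhesion receptors carry a long extracellular part that binds matrix or the surface of other cells and is cut from the membrane part by the receptor itself. Receptors named Gpr were found from their sequence before a ligand was known; for many a lipid, a metabolite or acidity has since been described as the trigger, and others are still without an accepted ligand. On macrophages such receptors sense acid, oxidised lipids and tissue metabolites, and F4/80 is the classical surface marker of the mouse macrophage.

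The cells had the markers of macrophages in both groups. All 8 macrophage markers, Csf1r, Cd68 and Lyz2 among them, lay above background in every array. Their mean log2 level was 11.84 and 11.96 in GM-CSF cells against 11.61 and 11.54 in M-CSF cells. The 8 included Adgre1, whose protein both groups were sorted for, and Itgam, whose protein the M-CSF cells were sorted for. Both genes entered the count and the means, although the sort itself selected for their proteins. Background was read from 1027 olfactory receptor genes, which macrophages are not known for; their 95th percentile averaged 5.90 on the log2 scale. Dendritic cell markers differed between the groups, with 3 of 7 (Itgax, Ccr7 and Clec9a) higher in GM-CSF cells and a mean level of 6.96 and 6.67 against 5.59 and 5.63, while Flt3 and Xcr1 were within background in every array. Neutrophil markers averaged 7.33 and 6.73 in GM-CSF cells against 6.35 and 6.32, with Mmp8 the single one called higher and Mpo lower among 8. The gap between these means rests largely on Mmp8, at 12.91 and 11.78 against 8.75 and 8.20. Of the T or NK cell markers, 5 of 6 lay within background in every array. The arrays of the GM-CSF pair also differed in the X-inactivation RNA Xist (11.58 in replicate 1 and 4.93 in replicate 2, against 4.53 and 4.80 in M-CSF cells), and in the Y-linked Eif2s3y (3.66 and 9.10, against 9.32 and 9.17). By these values GM-CSF replicate 1 read as female cells and the remaining arrays as male, so sex differed within the GM-CSF pair. Sex and replicate cannot be told apart there. These sex-linked genes were chosen after their values were seen. The part of these differences in the receptor results was not tested. In such bulk samples, fewer cells of a type and less RNA per cell cannot be told apart.

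Many of the receptor genes were dim. Of the 97, 52 had a mean over the 4 arrays above the background level and 45 did not. The 66 genes that entered the tests had at least 2 arrays above the 30th percentile of their array; in 61 of them all 4 arrays did, and none passed through a single group alone. The 31 genes not tested had means between 3.82 and 5.21. Among them were 10 adhesion receptors (Adgrb3, Adgrf1, Adgrf2, Adgrf4, Adgrf5, Adgrg2, Adgrg4, Adgrl3, Adgrl4 and Adgrv1), Gpr34 and Gpr174, which respond to lysophosphatidylserine, and the proton sensor Gpr4. The others were Gpr12, Gpr137c, Gpr143, Gpr182, Gpr22, Gpr37, Gpr39, Gpr45, Gpr50, Gpr61, Gpr63, Gpr82, Gpr101, Gpr149, Gpr151, Gpr158, Gpr165 and Gpr173. Gpr34, a receptor known from microglia, read 4.10 and 3.86 in GM-CSF cells against 3.94 and 3.86 in M-CSF cells. Of the 11 X-linked members, Gpr119 was the single one tested.

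**Figure D1:**
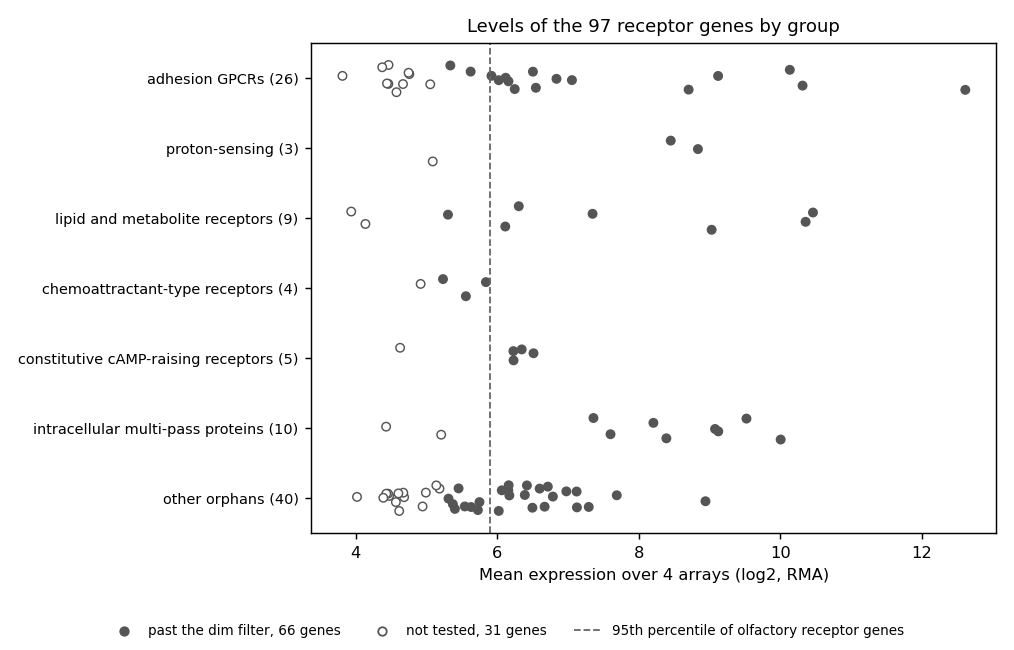
Mean log2 expression over the 4 arrays (horizontal axis) of each of the 97 receptor genes, in rows by group with the number of genes in brackets; filled points passed the dim filter and open points were not tested. The dashed line is the background level of 5.90, and 52 genes lie to its right.

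The bright end was led by Adgre1, at a mean of 12.61, followed by Gpr31b (10.46), Gpr84 (10.36), Adgrl2 (10.31), Adgre5 (10.13) and Gpr137b-ps (10.003). RMA levels of different probe sets depend on their probes, so this order describes the array signal and not molecules of RNA.

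Gpr141, Gpr132, Gpr85, Gpr183, Gpr15, Gpr160 and Gpr55 were higher in GM-CSF cells, and Gpr65, Gpr162, Gpr35 and Adgra3 lower (limma, Benjamini-Hochberg adjusted p under 0.05 over all 14995 genes tested). Thus 7 of 66 tested members rose, 10.6%, beside 6.18% of all genes tested, and 4 fell, 6.06%, beside 4.53% of all genes. The median log2 difference of the 66 was 0.04, against -0.01 over all genes. In 36 of the 66 the groups did not overlap, as in 8314 of the 14995 genes. Gpr141, Gpr132 and Gpr85 were at least 2-fold higher and Gpr65 at least 2-fold lower. With the arrays centred on their medians, 9 members rose and 3 fell. Of the 55 that did not pass, 47 had a 95% interval of the difference that lay within 1 log2 unit either side of 0. The same share was not computed over all genes. Some of the 47, Gpr1 and Gpr119 among them, stayed within background in every array, where RMA compresses differences.

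The calls leaned on the M-CSF arrays. Gpr141 passed under all 12 other settings tried and Gpr132 under 11, with an adjusted p of 0.0619 without M-CSF replicate 2 (limma). The other 9 called members dropped out when an M-CSF array was removed, whichever it was, and 2 members were higher and 0 lower without replicate 1 and 1 higher and 0 lower without replicate 2. Such a fit takes its spread from the wider GM-CSF pair alone.

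**Figure D2:**
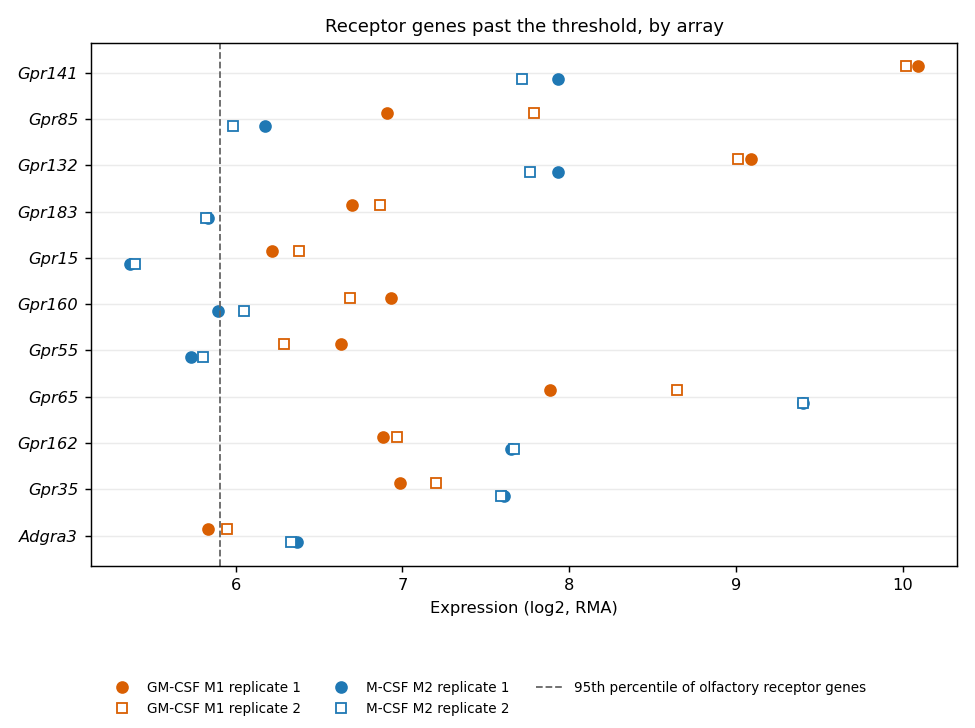
Log2 expression (horizontal axis) in each of the 4 arrays for the 11 receptor genes past the threshold, with GM-CSF M1 arrays in orange above M-CSF M2 arrays in blue, circles for replicate 1 and open squares for replicate 2. The 7 upper genes have both GM-CSF points to the right of both M-CSF points, the 4 lower genes both to the left, and Gpr141 has the widest gap.

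Gpr141, an orphan receptor with no accepted ligand, showed the largest called difference. Its probe set (10407985) read 10.09 and 10.02 in GM-CSF cells against 7.94 and 7.72 in M-CSF cells. The GM-CSF level was 4.69-fold higher (2.23 ± 0.12 on the log2 scale, SE, 2 arrays per group, limma adjusted p = 0.00033). Both pairs were tight and the groups lay far apart. The difference ran from 2.12 to 2.34 over the 12 other settings. The limma adjusted p was at most 0.000564 over the 8 of them that keep 4 arrays. Gpr141b, a related gene, read 6.42 and 5.52 in GM-CSF cells against 5.12 and 5.47 in M-CSF cells and did not pass (0.67 ± 0.29, limma adjusted p = 0.22). The groups did not overlap there either, but GM-CSF replicate 2 and M-CSF replicate 2 were nearly equal. For Gpr141b, GM-CSF replicate 1 was the single array above background.

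The proton-sensing receptors went in opposite directions. Receptors of this class respond when the fluid around a cell turns acid. Gpr132, a macrophage receptor of the class that is also linked to lysophospholipids, oxidised fatty acids and lactate, read 9.09 and 9.01 in GM-CSF cells against 7.94 and 7.77 in M-CSF cells. It was 2.30-fold higher (log2 1.20 ± 0.11 SE, limma adjusted p = 0.0022). Gpr65, also called TDAG8, which raises cyclic AMP in acid surroundings, read 7.89 and 8.65 in GM-CSF cells against 9.40 and 9.41 in M-CSF cells. It was 2.20-fold lower (log2 -1.14 ± 0.24, limma adjusted p = 0.0346). The groups of both genes stood apart, but the GM-CSF arrays of Gpr65 were far less alike than its M-CSF arrays. Removing GM-CSF replicate 1 gave -0.75 and removing replicate 2 gave -1.52, and Gpr65 lost its call with trended and robust variances (limma adjusted p = 0.066). Gpr4 was not tested.

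The promoters of the receptor with the largest called difference, of the proton sensors that moved in opposite directions and of Gpr55, the 1 called gene with a STAT motif there, are given from RefSeq (GRCm38.p6), 300 bases that begin upstream of the annotated start and end just past it, 5′ to 3′ on the gene's strand. Matches to 3 motifs of macrophage transcription factors on either strand are in capitals: the core of PU.1 (GAGGAA), AP-1 (TGANTCA) and STAT (TTCNNNGAA).
Gpr141, chr13:19824208-19824507, minus strand: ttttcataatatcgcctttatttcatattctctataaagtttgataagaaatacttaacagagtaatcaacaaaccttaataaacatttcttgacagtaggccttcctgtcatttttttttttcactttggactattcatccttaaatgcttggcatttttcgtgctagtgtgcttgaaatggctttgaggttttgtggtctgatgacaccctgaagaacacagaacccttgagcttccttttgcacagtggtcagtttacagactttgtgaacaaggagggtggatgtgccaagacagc
Gpr132, chr12:112860867-112861166, minus strand: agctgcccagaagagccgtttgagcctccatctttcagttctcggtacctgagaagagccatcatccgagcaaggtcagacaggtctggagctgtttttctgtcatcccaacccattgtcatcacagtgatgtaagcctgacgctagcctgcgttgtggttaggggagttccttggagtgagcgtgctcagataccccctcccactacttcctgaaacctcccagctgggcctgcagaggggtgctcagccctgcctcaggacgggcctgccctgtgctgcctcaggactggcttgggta
Gpr65, chr12:98268385-98268684, plus strand: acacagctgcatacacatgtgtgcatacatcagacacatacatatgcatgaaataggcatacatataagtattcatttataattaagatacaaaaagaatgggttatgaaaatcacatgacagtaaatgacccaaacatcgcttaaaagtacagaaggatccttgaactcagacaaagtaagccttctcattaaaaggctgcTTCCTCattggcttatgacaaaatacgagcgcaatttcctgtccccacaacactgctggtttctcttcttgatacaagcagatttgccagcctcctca
Gpr55, chr1:85961006-85961305, minus strand: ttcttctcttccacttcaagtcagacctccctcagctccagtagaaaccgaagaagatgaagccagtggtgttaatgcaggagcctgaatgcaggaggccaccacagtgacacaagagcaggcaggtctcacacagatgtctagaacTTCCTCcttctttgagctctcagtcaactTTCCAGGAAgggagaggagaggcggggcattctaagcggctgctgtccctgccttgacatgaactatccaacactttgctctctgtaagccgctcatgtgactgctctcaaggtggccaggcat
Gpr65 and Gpr55 each hold 1 PU.1 core, read on the opposite strand, and Gpr55 also holds 1 STAT motif, with no overlap between motifs. The Gpr141 and Gpr132 windows hold none of the 3. Of 92 promoters of 72 members with an entry, 29.3% held a PU.1 core, 8.70% an AP-1 motif and 8.70% a STAT motif. Of all 32817 promoters of this length, 28.3%, 7.81% and 8.29% did. The members' shares thus lay close to those of all promoters, and a match is a description of letters and not of binding.

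Of the receptors for lipids and metabolites, Gpr183 and Gpr55 were higher in GM-CSF cells and Gpr35 was lower, among 7 tested. The shares of the 7 were 28.6% and 14.3%, beside 6.18% and 4.53% of all genes tested. Gpr183, also called EBI2, guides immune cells along oxysterols made from cholesterol. It read 6.70 and 6.87 in GM-CSF cells against 5.83 and 5.82 in M-CSF cells, with an M-CSF mean below the background level, and differed by 0.96 ± 0.11 (log2, SE; 1.94-fold; limma adjusted p = 0.0046). Ch25h, the enzyme that makes the precursor of its ligand, read 8.21 and 7.33 against 5.26 and 5.46 and was 5.29-fold higher (log2 2.40 ± 0.28, limma adjusted p = 0.00432), a call lost without M-CSF replicate 1 (0.102) or 2 (0.0878). Its M-CSF values were within background, so this fold was measured against background. Both genes were thus high in the same 2 arrays. Hsd3b7, which breaks the ligand down, did not pass (0.30 ± 0.11, limma adjusted p = 0.155), nor did Cyp27a1 (0.14 ± 0.13), another sterol hydroxylase, and Cyp7b1, which completes the ligand, was within background and not tested. Of the B cell markers, which mark another cell type known for Gpr183, Cd79a and Ms4a1 lay within background in every array. Cd79b was above background in all 4 arrays and lower in GM-CSF cells, at 7.69 and 7.95 against 10.16 and 10.21. Pax5 lay near background (5.85 and 6.02 against 6.01 and 5.96).

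Gpr55, a receptor for lysophosphatidylinositol, read 6.63 and 6.29 in GM-CSF cells against 5.73 and 5.81 in M-CSF cells (log2 difference 0.69 ± 0.14 SE, 1.61-fold, limma adjusted p = 0.0319). Gpr35, for which kynurenic acid has been proposed as a ligand, read 6.98 and 7.20 in GM-CSF cells against 7.61 and 7.59 in M-CSF cells (-0.51 ± 0.12, 1.42-fold lower, limma adjusted p = 0.0469). Both differences are below 2-fold, the groups did not overlap, and the M-CSF values of Gpr55 were within background. Gpr35 lost its call with no filter on dim genes, with centring, with the replicate block and without GM-CSF replicate 1 (limma adjusted p = 0.0522). Gpr84, a receptor for medium-chain fatty acids that inflammation induces in myeloid cells, was bright in both groups, at 10.15 and 10.94 in GM-CSF cells against 10.09 and 10.24 in M-CSF cells, and did not pass (0.38 ± 0.25, 95% interval -0.23 to 0.99). Its groups overlapped, and GM-CSF replicate 2 stood above the other 3 arrays. Gpr119, a receptor for fatty acid amides, stayed within background and did not pass (-0.04 ± 0.11).

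Other orphan and chemoattractant-type receptors that rose were Gpr85, Gpr15 and Gpr160. Gpr85, a strongly conserved orphan receptor best known from brain, read 6.91 and 7.79 in GM-CSF cells against 6.18 and 5.99 in M-CSF cells, 2.41-fold higher (log2 1.27 ± 0.28 SE, limma adjusted p = 0.0377). The difference became 1.71 with GM-CSF replicate 1 removed and 0.83 with replicate 2 removed, and its call was lost after quantile normalization and with trended and robust variances (limma adjusted p of up to 0.0876 over the settings that keep 4 arrays). Gpr15, a homing receptor of T cells for the large intestine, read 6.22 and 6.38 in GM-CSF cells against 5.37 and 5.40 in M-CSF cells, a difference of 0.92 ± 0.11 (limma adjusted p = 0.0052). Its M-CSF values were within background, so the 1.89-fold difference was measured against background. Gpr160, an orphan receptor, read 6.93 and 6.68 in GM-CSF cells against 5.89 and 6.05 in M-CSF cells, 1.79-fold higher (0.84 ± 0.13, limma adjusted p = 0.0129). In all 3 genes both GM-CSF arrays lay above both M-CSF arrays. Gpr1, a chemerin receptor, and Gpr33 did not pass (0.14 ± 0.12 and -0.05 ± 0.15).

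Gpr162 was the other orphan receptor that fell. It read 6.88 and 6.97 in GM-CSF cells against 7.65 and 7.67 in M-CSF cells, 1.67-fold lower (log2 -0.74 ± 0.10 SE, limma adjusted p = 0.009). The pairs were tight and clearly apart. Of the 26 orphan receptors tested outside the named classes, 3 rose (11.5%) and 1 fell (3.85%), beside 6.18% and 4.53% of all genes. The other 22 did not pass, with differences between -0.25 and 1.49. The largest were those of Gpr171, described with the GM-CSF pair, and Gpr176. Gpr176, a receptor of the brain's circadian clock, read 6.62 and 7.46 in GM-CSF cells against 5.81 and 6.11 in M-CSF cells (1.08 ± 0.27, limma adjusted p = 0.0594). Its groups did not overlap, and it passed under centring, the replicate block and array weights. Gpr146, Gpr157, Gpr62, Gpr19, Gpr27, Gpr20, Gpr25, Gpr135, Gpr139, Gpr179, Gpr75, Gpr26, Gpr153, Gpr83, Gpr142, Gpr161, Gpr17, Gpr37l1 and Gpr152 were the rest with Gpr141b. The 4 tested receptors known to raise cyclic AMP without a ligand, Gpr3, Gpr6, Gpr21 and Gpr52, did not pass (differences between -0.32 and 0.04).

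**Figure D3:**
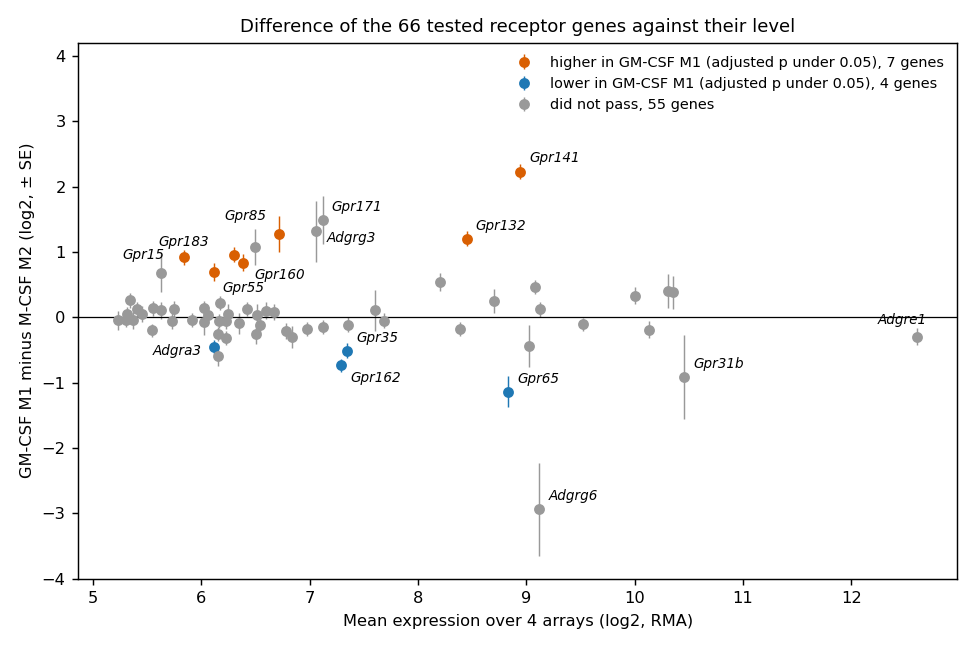
GM-CSF M1 minus M-CSF M2 log2 difference with its SE (vertical axis) against mean log2 expression over the 4 arrays (horizontal axis) for the 66 tested receptor genes, orange for the 7 higher, blue for the 4 lower and grey for the 55 that did not pass. Adgrg6 has the largest difference of all, at -2.94, with a wide error bar that keeps it from passing.

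Among the adhesion receptors 1 of 16 fell, 0 rose and 15 did not pass. The called shares were 6.25% lower and 0% higher, beside 4.53% and 6.18% of all genes tested. Adgra3, also called GPR125, read 5.83 and 5.95 in GM-CSF cells against 6.37 and 6.33 in M-CSF cells (log2 difference -0.46 ± 0.11 SE, limma adjusted p = 0.0465). Its levels are close to background, and its call was lost with no filter on dim genes, with centring, with the replicate block and without GM-CSF replicate 1 (limma adjusted p = 0.0517). Its relative Adgra2, also called GPR124, a co-receptor for Wnt7 ligands in brain vessels, read 5.68 and 6.05 against 6.36 and 6.55 and did not pass (-0.59 ± 0.16, limma adjusted p = 0.0688). Adgra2 passed with the replicate block (limma adjusted p = 0.0349). Its difference was -0.40 with GM-CSF replicate 1 removed and -0.77 with replicate 2 removed. Both genes had their GM-CSF arrays below their M-CSF arrays, while Adgra1 overlapped (-0.11 ± 0.12).

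Adgrg6, also called GPR126, a collagen-binding receptor needed for myelination by Schwann cells, had the largest difference of all members. It read 6.43 and 8.87 in GM-CSF cells against 10.55 and 10.63 in M-CSF cells (log2 difference -2.94 ± 0.71 SE, limma adjusted p = 0.051). Both GM-CSF arrays were well below the M-CSF arrays, and they were also far from each other. With GM-CSF replicate 1 removed it was -1.71, and with replicate 2 removed -4.16. It passed with centring, the replicate block and array weights, and did not with trended and robust variances (limma adjusted p = 0.302). Adgrg1, also called GPR56, read 6.91 and 6.47 against 6.98 and 6.996 (-0.30 ± 0.16, limma adjusted p = 0.314). Its value was -0.52 with GM-CSF replicate 1 removed and -0.083 with replicate 2 removed.

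The F4/80 group of adhesion receptors, whose outer part carries EGF-like repeats, was bright in both groups. Adgre1, the sorted protein's gene, read 12.32 and 12.61 in GM-CSF cells against 12.73 and 12.79 in M-CSF cells, and did not pass (log2 difference -0.30 ± 0.13 SE, 95% interval -0.62 to 0.027). Removing GM-CSF replicate 1 gave -0.15, and removing replicate 2 gave -0.44. Adgre5, which encodes CD97, read 10.18 and 9.89 against 10.17 and 10.28 and did not pass (-0.19 ± 0.13, 95% interval -0.52 to 0.14). Cd55, a gene for a known ligand of CD97 that was chosen after its values were seen, read 5.69 and 5.03 in GM-CSF cells against 9.69 and 9.61 in M-CSF cells. The ligand's gene was thus within background in GM-CSF cells, while the receptor's levels overlapped between the groups. Adgre4, an F4/80-like receptor of mouse myeloid cells, read 8.83 and 8.83 against 8.85 and 8.30 (0.25 ± 0.19, 95% interval -0.20 to 0.71). M-CSF replicate 2 was the low array there.

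Of the latrophilins, Adgrl2 was bright and Adgrl1 near background. Adgrl2 read 10.94 and 10.09 in GM-CSF cells against 10.13 and 10.10 in M-CSF cells (log2 difference 0.40 ± 0.26 SE, limma adjusted p = 0.413), so that GM-CSF replicate 1 was alone in being high. All 8 probe sets of the gene had that array highest, by 0.59 to 1.19 over GM-CSF replicate 2, at levels that otherwise differed widely, and their M1 minus M2 differences ran from 0.21 to 0.67. Adgrl1 read 5.77 and 6.198 against 5.88 and 6.24 (-0.08 ± 0.19). Adgrb1, also called BAI1, which binds phosphatidylserine on dying cells, overlapped at 6.17 and 6.37 against 6.07 and 6.38 (0.05 ± 0.15, 95% interval -0.31 to 0.41). Adgrb2 (-0.25 ± 0.15), Adgrd1 (0.10 ± 0.13), Adgrd2-ps (-0.04 ± 0.11) and Adgrg7 (0.26 ± 0.11) did not pass.

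**Figure D4:**
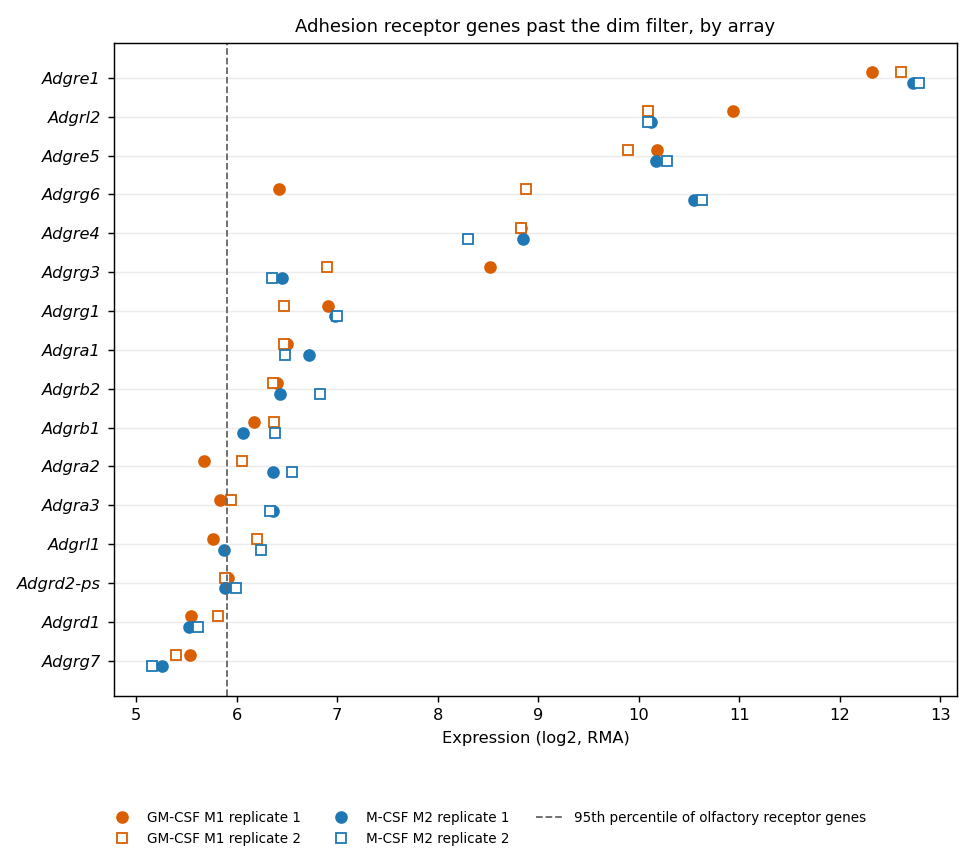
Log2 expression (horizontal axis) in each array for the 16 adhesion receptor genes past the dim filter, ordered by mean level, with GM-CSF M1 arrays in orange above M-CSF M2 arrays in blue; the dashed line is the background level. Adgrg6 and Adgrg3 have the widest gap between their GM-CSF points, at -2.45 and 1.62 for replicate 1 minus replicate 2, while the M-CSF points of both nearly coincide.

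Of the members that act inside the cell, none passed with the settings used throughout. Under other settings that keep all 4 arrays, Gpr137b and Gpr137 did. These multi-pass proteins carry the Gpr name but sit in the Golgi or in lysosomes, such as Gpr107, Gpr108 and the Golgi pH regulator Gpr89. The fit used throughout called 0 of the 8 tested (limma), beside 6.18% of all genes higher and 4.53% lower. An unadjusted limma p under 0.05 was found in 3 of the 8, and in 3821 of the 14995 genes. Differences lay between -0.18 and 0.54, and all 8 were above background in every array. Gpr137b, a lysosomal protein linked to mTORC1, read 9.36 and 9.26 in GM-CSF cells against 8.92 and 8.77 in M-CSF cells (log2 difference 0.46 ± 0.11 SE, limma adjusted p = 0.0551). Gpr137b-ps, its pseudogene, read 10.27 and 10.07 against 9.92 and 9.76 (0.33 ± 0.13, limma adjusted p = 0.163), and the probes may not part these near-identical sequences. Gpr137 read 8.35 and 8.60 against 8.05 and 7.82 (0.54 ± 0.14, limma adjusted p = 0.0651). In these 3 genes both GM-CSF arrays lay above both M-CSF arrays. Gpr137b passed with the stricter filter, quantile normalization, and trended and robust variances (limma adjusted p = 0.0455, 0.0482 and 0.0381), and Gpr137 with the last of these. Gpr107 differed by -0.11 ± 0.10, Gpr108 by 0.12 ± 0.11, Gpr89 by -0.18 ± 0.11 and Gpr180 by -0.12 ± 0.12.

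The 2 GM-CSF arrays differed at least 2-fold in 6 of the 66 tested members, Adgrg6, Gpr31b, Gpr18, Gpr155, Adgrg3 and Gpr171, which is 9.09%, beside 1.51% of all genes tested. Between the 2 M-CSF arrays 0 of the 66 did, beside 0.0467% of all genes. Each of these pairs sets 1 array against 1, so no test was possible. The median absolute difference within a pair was 0.16 in the GM-CSF and 0.12 in the M-CSF arrays over the members, against 0.14 and 0.11 over all genes.

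Gpr31b, Gpr18 and Adgrg6 were low in GM-CSF replicate 1. Gpr31b, which senses lactate and pyruvate in mouse intestinal phagocytes, read 8.89 in GM-CSF replicate 1 and 11.11 in replicate 2, against 10.89 and 10.95 in M-CSF cells. Replicate 1 was 4.68-fold below replicate 2, and the difference between the growth factors was -2.03 with replicate 2 removed and 0.19 with replicate 1 removed, so its sign depended on the array kept and it did not pass with all 4 (-0.92 ± 0.64, limma adjusted p = 0.449). Both probe sets of the gene gave this pattern, with 8.88 and 11.06 against 10.86 and 10.93 in the second, and both may read its near-identical copy Gpr31c. Gpr18, a leukocyte receptor with proposed lipid ligands, read 8.28 and 9.34 against 9.17 and 9.33, so that GM-CSF replicate 1 was the low array (-0.44 ± 0.32, limma adjusted p = 0.478). Adgrg6 was 5.46-fold lower in replicate 1 than in replicate 2 (6.43 and 8.87).

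Adgrg3 and Gpr171 were high in GM-CSF replicate 1. Adgrg3, also called GPR97, a receptor known from granulocytes, read 8.52 in GM-CSF replicate 1 and 6.90 in replicate 2, against 6.45 and 6.35 in M-CSF cells (M1 minus M2 log2 difference 1.31 ± 0.47 SE, limma adjusted p = 0.147). It was 3.07-fold higher in replicate 1 than in replicate 2, and its M1 minus M2 difference was 0.50 with replicate 1 removed and 2.12 with replicate 2 removed. In the same 2 arrays 5 of 8 neutrophil markers were higher in replicate 1, S100a8 (8.54 and 7.04) and Mmp8 (12.91 and 11.78) at least 2-fold, while Elane (5.78 and 5.96) and Mpo (5.65 and 5.68) were near background. All 5 eosinophil markers were higher in replicate 1 too, but 2 of them lay within background in every array. Their mean level was 5.95 in replicate 1 and 5.41 in replicate 2 against 5.56 and 5.66 in M-CSF cells. Of the mast cell or basophil markers, 4 of 5 were higher in replicate 1, Cpa3 (5.91 and 4.46) at least 2-fold. Their mean was 5.04 and 4.53 against 4.60 and 4.54, and 3 of the 5 lay within background in every array. The part of these 3 lists in the result was not tested. Gpr171, an orphan receptor best known from T cells, read 8.44 and 7.29 in GM-CSF cells against 6.58 and 6.18 in M-CSF cells (1.49 ± 0.36, limma adjusted p = 0.053), and its groups did not overlap. Of the 6 T or NK cell markers, Cd3e was the single one above background (6.16 and 6.18 against 5.84 and 6.13), and the part of such cells was not tested. Gpr171 differed by 0.91 with GM-CSF replicate 1 removed and 2.07 with replicate 2 removed, and it passed with centring, the replicate block and array weights.

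Gpr155, a lysosomal cholesterol sensor, straddled the M-CSF cells, at 7.13 in GM-CSF replicate 1 and 8.17 in replicate 2, against 7.52 and 7.57. Its M1 minus M2 difference was therefore near 0 (0.11 ± 0.31) and ran from -0.42 without GM-CSF replicate 2 to 0.63 without replicate 1. None of the 6 genes was called in the fit of all 4 arrays (limma), and 4 of the 6 were lower in replicate 1. Of the 11 called members, Gpr85 and Gpr65 were the 2 with GM-CSF arrays at least 0.5 apart.

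**Figure D5:**
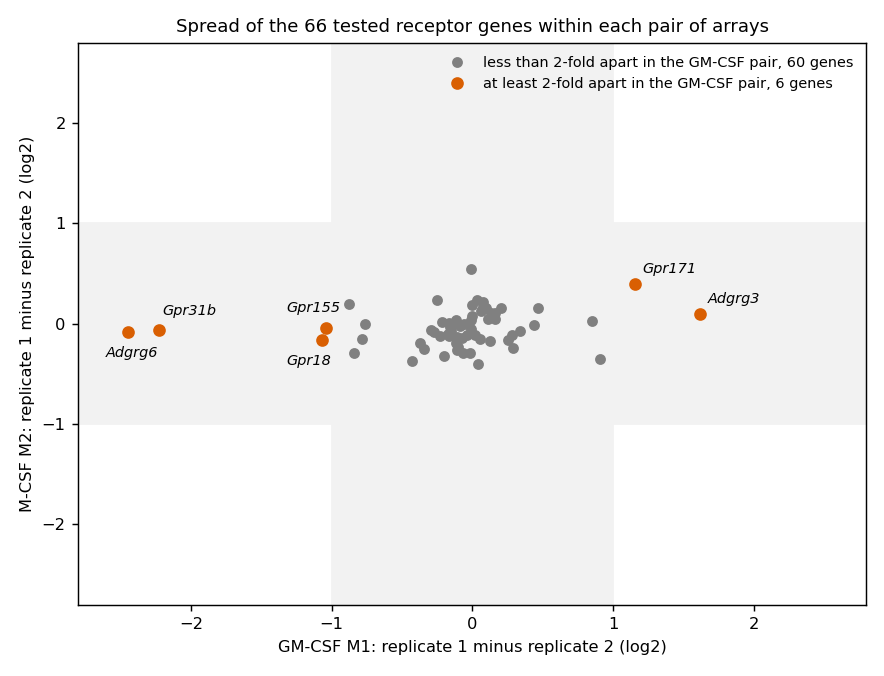
Replicate 1 minus replicate 2 in the GM-CSF M1 pair (horizontal axis, log2) against the same in the M-CSF M2 pair (vertical axis, log2) for the 66 tested receptor genes; grey bands mark differences under 2-fold. The 6 orange genes lie beyond 2-fold on the horizontal axis, and 0 genes lie beyond it on the vertical axis.

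Among the proteins that carry a receptor's signal onward, 7 of 53 tested genes were higher in GM-CSF cells, 4 lower and 42 did not pass, 13.2% and 7.55% beside the 6.18% and 4.53% of all genes given above. The list held G protein subunits, receptor kinases, arrestins, regulators of G protein signalling, cyclic AMP enzymes and phospholipases. It had 62 names, older names of some kinases among them, of which 56 were measured. Gnas and Prkaca were not among those measured. Plcb2, a phospholipase that G proteins switch on, read 10.18 and 9.83 in GM-CSF cells against 8.72 and 8.67 in M-CSF cells (log2 difference 1.31 ± 0.14 SE, limma adjusted p = 0.00364). Plcb3 (0.60 ± 0.12), the subunits Gnb5 (0.75 ± 0.10), Gna15 (0.59 ± 0.11) and Gnb4 (0.57 ± 0.11), and the regulators Rgs2 (0.84 ± 0.14) and Rgs14 (0.69 ± 0.11) rose as well. Grk3, a kinase that turns receptors off, read 7.24 and 7.93 against 8.60 and 8.61 (-1.02 ± 0.22, limma adjusted p = 0.0384), Rgs18 fell by 0.89 ± 0.20 and Prkacb, a catalytic subunit of protein kinase A, by 0.59 ± 0.11. The abundant Gnai2, the main inhibitory subunit of leukocytes, did not pass (-0.19 ± 0.10), nor did Arrb1 (-0.30 ± 0.15) and Arrb2 (-0.09 ± 0.19). All 10 named calls dropped out when either M-CSF array was removed (limma adjusted p between 0.082 and 0.304). Grk3 was -0.67 with GM-CSF replicate 1 removed and Rgs18 -0.58 with GM-CSF replicate 2 removed, and both lost their call after quantile normalization (limma adjusted p = 0.0504 and 0.0536). Grk3 also lost it with trended and robust variances (limma adjusted p = 0.0551) and Rgs18 with no filter on dim genes (limma adjusted p = 0.0563).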

How the data were processed

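Per the labels' protocols, total RNA was amplified, labelled with biotin and hybridised to Affymetrix arrays. The deposited values are log2 expression per probe set, made by the authors with RMA (Expression Console 1.1 of Affymetrix, as the submitters' processing notes give it); RMA equalises the distributions of the arrays and compresses differences of dim genes. The arrays have no read depth, and their number (2 per group) limits the precision. Neither detection calls nor batch labels were used here.

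Of 35556 probe sets, 21789 had a single platform gene symbol, 1621 several and 12146 none listed; all 97 members matched RefSeq (GRCm38.p6) by gene ID with the same symbol. The probe set of highest mean stood for a gene (Adgrl2 had 8, Gpr31b 2). Genes with at least 2 arrays above their array's 30th percentile were tested, 14995 in all, with limma 3.58.1 in R 4.3.3 (two-sided; degrees of freedom 2 residual, 4.17 prior; Benjamini-Hochberg adjusted p under 0.05). Differences are GM-CSF M1 minus M-CSF M2. The fit was checked on simulated data that had the same spread in both groups. That check does not cover the wider spread of the GM-CSF pair seen here. Settings tried are given with the closing remarks. Python 3.11.15 and matplotlib 3.10.9 made tables and plots.

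Members and lists were chosen with earlier results of these data known. Named genes were all called members, those 2-fold apart in the GM-CSF pair, the 10 brightest, all tested adhesion receptors, up to 10 called signalling partners and the Gpr183 ligand enzymes; other members were named to account for them, and Gnai2, Arrb1, Arrb2, Gpr176 and the markers after their values were seen.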

Additional observations from a re-analysis of the deposited data

How the results depend on the processing

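Under centring, quantile normalization, no filter, a filter at the 50th percentile, probe set means, trended and robust variances, the replicate block and array weights per group, between 7 and 9 members were higher in GM-CSF cells, and between 2 (no filter) and 5 lower. Leaving out 1 array in turn gave 1 to 14 higher and 0 to 10 lower. Each of these fits leaves 1 array in a group and takes its spread from the pair of the other group alone. Members gained without a GM-CSF array are therefore not listed as calls. The 6 members 2-fold apart within the GM-CSF pair numbered 6 under all 5 settings tried for them. Signs were followed for the called members, those 2-fold apart in the GM-CSF pair, the 10 brightest and the tested adhesion receptors. Other members were not followed. Among the followed members that had not passed, the sign turned in those given next when 1 array was left out. The range was -2.03 to 0.19 for Gpr31b, -0.97 to 0.096 for Gpr18, -0.020 to 0.83 for Adgrl2 and -0.29 to 0.14 for Adgrl1, each at one end without GM-CSF replicate 1. It was -0.42 to 0.63 for Gpr155, -0.012 to 0.77 for Gpr84 and -0.031 to 0.24 for Adgrd1, lowest without GM-CSF replicate 2. It was -0.23 to 0.0053 for Adgra1, -0.11 to 0.21 for Adgrb1 (and -0.053 without GM-CSF replicate 2), -0.022 to 0.53 for Adgre4 and -0.094 to 0.016 for Adgrd2-ps, the ends being the fits without each M-CSF array. Adgrl1 was 0.11 without M-CSF replicate 2. No called member changed sign. The cause was not tested. With the replicate block 9 members were higher and 4 lower; same-numbered arrays shared only a number (correlation of deviations 0.065), and the block kept 9 of the 11 calls and added Adgra2, Adgrg6, Gpr171 and Gpr176. With no filter Gpr35 and Adgra3 were lost, with 19938 genes adjusted over. For the 45 members with a mean not above background, the signal itself limits what could be seen.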
